A study of Homo sapiens with 30 samples.

Results

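The mitotic spindle and G2/M genes followed here are 49 genes, each taken by its exact symbol from the 4 count tables of the series, and all 49 were found among the 57773 gene rows and passed the filter on low counts in every table. They were followed across 14 groups of 3 human prostate cancer cell lines that carry androgen receptor. C4-2 is a castration-resistant derivative of LNCaP, and here it carried a hairpin against the retinoblastoma gene RB1 that is switched on by doxycycline (dox, 0.05 µg/ml). In a DHT experiment, C4-2 cells in RPMI with 8% charcoal-stripped serum and 2% fetal serum had no dox, 3 days or 30 days of dox, each with vehicle or with 10 nM dihydrotestosterone (DHT, the potent androgen) for 24 hours. In a second C4-2 experiment, in RPMI with 5% stripped serum, cells had no dox or 3 days of dox, each with DMSO or with 10 µM GSK2879552, which blocks the demethylase LSD1, for 24 hours. VCaP cells had 20 nM of control or RB1 siRNA for 2 days, in DMEM with 10% fetal serum by the labels, while their library names read CSS. LNCaP cells in 5% stripped serum had vehicle or 1 µM GSK2879552 for 2 days. All C4-2 groups carry the hairpin, with or without dox, and no dox control with another hairpin was among the samples used, so effects of dox itself and of RB1 loss cannot be told apart.

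Cells enter mitosis when CDK1, bound to cyclin B, is released from inhibitory phosphorylation: WEE1 adds the phosphate and the CDC25 phosphatases remove it. Most genes of the mitotic programme are transcribed late in the cycle by B-MYB (the product of MYBL2) together with the MuvB complex, and by FOXM1, at promoters that hold a CHR element and CCAAT boxes bound by NF-Y. In cells that have left the cycle the same CHR sites are held silent by the DREAM complex, which joins MuvB to the RB1-related proteins p130 and p107. RB1 itself binds activator E2F factors and restrains mainly the genes of DNA replication, the S-phase genes, and KDM1A (LSD1) removes methyl groups from histone H3.

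Promoter sequence was not used to choose the genes. The RefSeq table of promoter windows (GRCh38.p14, 250 bases before to 50 after the start) held 39 of the 49. A CHR element, searched as TTTGAA or TTCGAA on both strands, was present in 28 of the 39, or 71.8%, against 16.4% of all 35116 promoters in the table. CCAAT on either strand was present in 29, or 74.4%, against 34.6% of all promoters, and 24 windows held both, or 61.5% against 6.38%. An E2F site, searched as TTTCGCGC, TTTGGCGC or TTTCCCGC on both strands, was present in 3, or 7.69%, against 2.74% of all. In 44 windows of S-phase genes the CHR was present in 6.82% and the E2F site in 54.5%, while in 51 windows of other mitotic genes the CHR was present in 70.6%. These shares depend on the window: over the 250 bases before the start alone, the CHR was present in 51.3% of the members, 39.2% of the other mitotic genes and 14.3% of all promoters, and the E2F site in 38.6% of the S-phase genes. The 200 bases before the start are printed for 4 members that recur in the comparisons, chosen because they hold both elements there. Other recurring members differed: CCNB1, MYBL2 and KIF20A had no CHR in the window, and BUB1 and CENPF had theirs only after the start. CDK1 lies at chr10:60778131-60778330 on the plus strand, PLK1 at chr16:23678689-23678888 on the plus strand, MKI67 at chr10:128126424-128126623 on the minus strand and TOP2A at chr17:40417897-40418096 on the minus strand. They are written in the direction of transcription, with each CHR or CCAAT match, in either orientation, in capitals.
CDK1: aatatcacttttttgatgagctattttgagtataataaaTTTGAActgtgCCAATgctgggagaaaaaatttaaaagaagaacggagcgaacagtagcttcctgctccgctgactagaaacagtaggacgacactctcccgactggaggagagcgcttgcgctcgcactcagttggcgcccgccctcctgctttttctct
PLK1: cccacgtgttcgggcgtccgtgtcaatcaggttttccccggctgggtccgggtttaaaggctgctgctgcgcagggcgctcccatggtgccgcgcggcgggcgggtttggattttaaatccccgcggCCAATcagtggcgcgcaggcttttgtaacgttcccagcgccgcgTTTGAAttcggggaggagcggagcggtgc
MKI67: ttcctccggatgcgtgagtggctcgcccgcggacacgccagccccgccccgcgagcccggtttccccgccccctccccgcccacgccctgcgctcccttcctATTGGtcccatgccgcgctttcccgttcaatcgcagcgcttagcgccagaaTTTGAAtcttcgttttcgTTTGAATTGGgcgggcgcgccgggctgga
TOP2A: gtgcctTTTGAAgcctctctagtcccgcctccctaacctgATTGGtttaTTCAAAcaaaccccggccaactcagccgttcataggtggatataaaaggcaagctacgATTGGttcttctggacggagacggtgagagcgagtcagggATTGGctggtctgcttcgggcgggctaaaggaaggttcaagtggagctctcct
CDK1 and PLK1 each hold 1 CHR and 1 CCAAT, MKI67 holds 2 of each, with the last CHR sharing bases with an inverted CCAAT, and TOP2A holds 2 CHR and 3 CCAAT matches. A match is a description of letters only. With DHT and no dox, the median log2 change was -1.05 over the 28 members with a CHR in the window and -1.27 over the 11 without, and the difference was not tested.

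The libraries held 14898454 to 16856486 assigned counts in the DHT experiment, 14515932 to 22326960 in the second C4-2 experiment, 4311455 to 7107036 in VCaP and 13085157 to 14036346 in LNCaP. The 2 columns of each group in the DHT and LNCaP tables differed by no more than sampling noise and carry the same library name and index, so they were summed and each such group counts as 1 library. VCaP had 3 libraries per group and the second C4-2 experiment 2, which the labels do not state to be separate cultures, so p-values measure the spread between these libraries. The VCaP libraries of a group differed by little more than sampling noise, with a chi-square per gene of 1.13 to 1.39 where sampling alone gives about 1. RB1 was 48.1 and 51.1 CPM (counts scaled to library size) without dox in the DHT experiment and 6.25 to 10.0 with it, 22.1 to 32.7 without dox and 4.64 to 6.74 with it in the second experiment, and 56.5 to 63.9 with control and 5.35 to 7.41 with RB1 siRNA in VCaP. KLK3, an androgen receptor target, rose with DHT by 1.20 on the log2 scale without dox and by 0.95 with dox. Luminal prostate markers were abundant in every library, and summed basal and immune markers stayed at or below 8.05 and 2.64 CPM. Stromal markers summed to 42.1 to 55 CPM in the second C4-2 experiment, led by COL1A1, to 26.5 to 41.1 in LNCaP, and to at most 17.2 in the other tables. Neuroendocrine markers summed to at most 5.31 CPM except in VCaP, where they summed to 317 to 352 CPM in both groups.

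Levels are given as CPM scaled by TMM within a table. The 49 genes together made up 0.669% of all counts in C4-2 with vehicle and no dox, 0.316 to 0.321% in C4-2 with DMSO and no dox, 0.335 to 0.350% in VCaP with control siRNA and 0.0852% in LNCaP with vehicle. The tables were scaled separately, and the DHT and LNCaP libraries were made from total RNA while the others were made from mRNA, so these levels stand side by side and were not tested. Within a library, levels per kilobase of exon set the genes in different orders. CDK1 had the highest level per kilobase in C4-2 with vehicle, at 221.8 CPM per kilobase, and MKI67, which coats mitotic chromosomes, the lowest at 6.78. In C4-2 with DMSO the highest was PTTG1 (securin) at 66.1 and the lowest the kinesin KIF18A at 1.59. In VCaP with control siRNA the highest was TOP2A, which untangles DNA, at 78.0 and the lowest the kinetochore scaffold CASC5 at 2.18, and in LNCaP with vehicle CCNB1 (cyclin B) was highest at 23.3 and the spindle pole protein ASPM lowest at 0.337. In bulk RNA, fewer dividing cells and less RNA per dividing cell cannot be told apart.

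**Figure D1:**
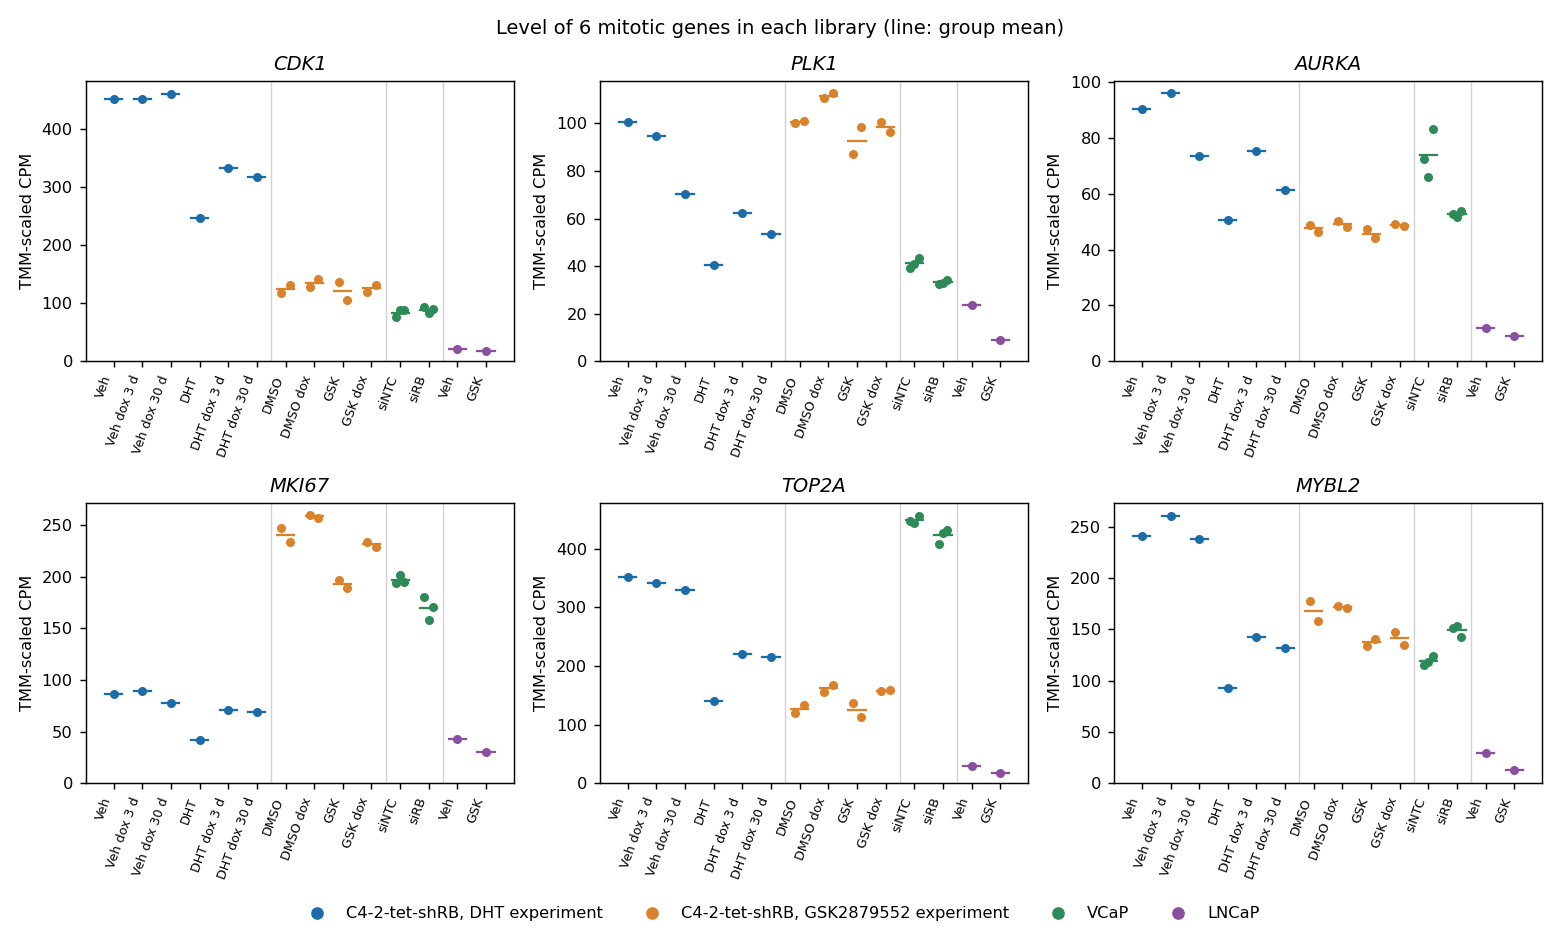
TMM-scaled CPM (y axis) of CDK1, PLK1, AURKA, MKI67, TOP2A and MYBL2 in each library of the 14 groups (x axis), with a short line at each group's mean. The library with DHT and no dox is the lowest of the DHT experiment for each of the 6 genes.

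DHT lowered almost the whole set in C4-2, and the fall was smaller in cells with dox. The 49 genes went from 0.669% of all counts with vehicle to 0.282% with DHT in cells without dox, from 0.679% to 0.418% at 3 days of dox, and from 0.626% to 0.399% at 30 days. The 3 vehicle libraries were close together, and the library with DHT and no dox was below the other DHT libraries. Of the 49, all had their lowest level of the 6 libraries in DHT without dox, where 24.8% of all genes tested did, and 45 had all 3 DHT libraries below all 3 vehicle libraries, where 25.8% of all genes did. The 4 exceptions were WEE1, KIF18A, CKAP2 and AURKA.

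Among the genes of the CDK1 engine, CDK1 was at 452 CPM with vehicle and 246 with DHT in cells without dox, at 450.4 and 332 after 3 days of dox, and at 459.8 and 317 after 30 days. Its vehicle level was nearly flat across dox, and its DHT level was lowest without dox. CCNB1, the cyclin that CDK1 needs, was at 308 and 152 CPM without dox, 321 and 207 at 3 days and 237 and 177 at 30 days. CCNB1 with vehicle was lower at 30 days than in the other vehicle libraries, and no DHT library reached any vehicle library. WEE1, the kinase that holds CDK1 inactive, was at 60.7 and 37.3 CPM without dox, 71.2 and 61.6 at 3 days and 69.9 and 66.3 at 30 days. For WEE1 both DHT libraries with dox were above the vehicle library without dox, so the groups overlapped.

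The regulators of the programme fell with it. MYBL2 was at 242 CPM with vehicle and 92.4 with DHT without dox, 261 and 143 at 3 days, and 238 and 132 at 30 days. FOXM1 was at 136 and 54.2 CPM without dox, 142 and 83.5 at 3 days, and 139.6 and 82.1 at 30 days. Both factors stayed flat across the vehicle libraries, with the DHT libraries well below and the one without dox lowest. PLK1, the polo kinase that drives spindle assembly, was at 100.4 and 40.6 CPM without dox, 94.8 and 62.3 at 3 days, and 70.2 and 53.4 at 30 days. AURKA, the kinase of the spindle poles, was at 90.4 and 50.5 CPM, then 96.0 and 75.3, then 73.5 and 61.3. In these kinases the 30-day vehicle library was itself low, and AURKA with DHT at 3 days was slightly above it.

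Of the structural genes, the checkpoint kinase BUB1 was at 87.0 CPM with vehicle and 48.7 with DHT without dox, 97.2 and 68.5 at 3 days, and 80.8 and 62.9 at 30 days. CENPF, a protein of the outer kinetochore, was at 288 and 113 CPM, then 270.5 and 173, then 239 and 173. CENPF with DHT stood at the same level at both times of dox, above the DHT library without dox. KIF20A, a kinesin of the central spindle and cytokinesis, was at 160.0 and 71.4 CPM, then 165 and 114, then 129 and 103. TOP2A was at 352 and 140.3 CPM, then 342 and 220.1, then 331 and 215. MKI67 was at 86.0 and 41.8 CPM, then 89.1 and 70.8, then 77.7 and 68.8. The MKI67 libraries with DHT and dox came closest to their vehicle libraries of these structural genes, without overlapping them.

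**Figure D2:**
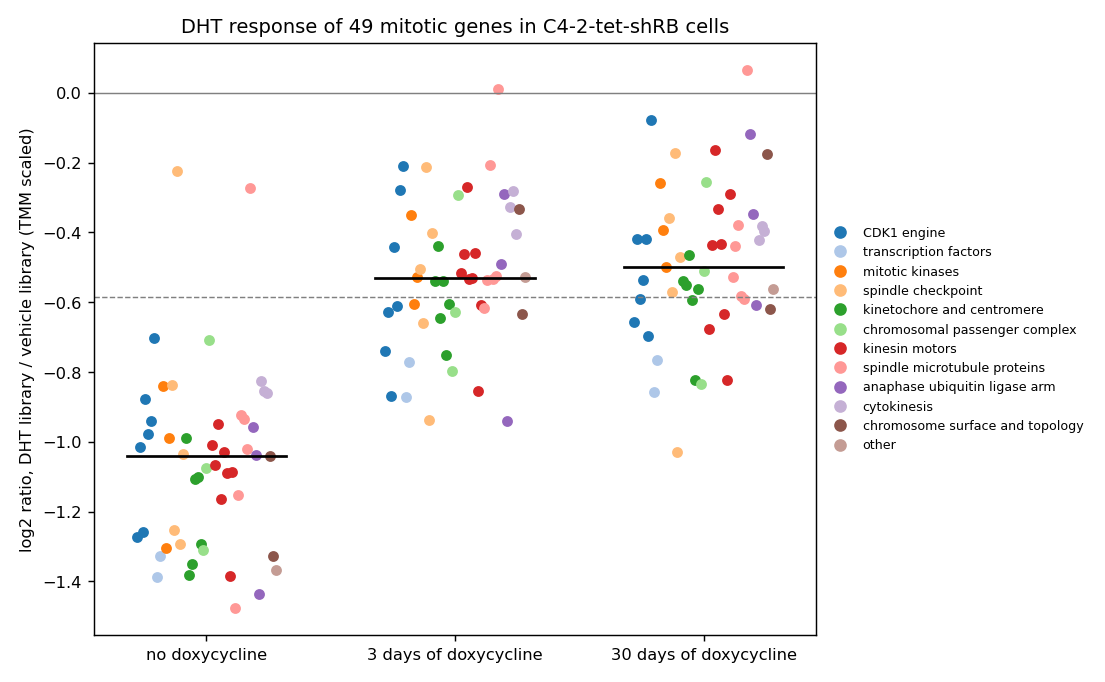
Log2 ratio of DHT to vehicle (y axis) for the 49 genes, without dox and at 3 and 30 days of dox (x axis). Each dot is 1 gene, coloured by role. Black lines mark the medians and the dashed line a 1.5-fold fall. The median rises from -1.04 without dox to -0.53 at 3 days and -0.50 at 30 days.

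Without dox, 48 of the 49 fell with DHT by edgeR's quasi-likelihood test at an adjusted p under 0.05, where 13.2% of the 17300 genes tested fell. None rose, where 16.3% of all genes did, and the median log2 change was -1.04, with a range of -1.48 to -0.22, against -0.02 over all genes tested. The transcription factors had a median of -1.36 and the 6 kinetochore and centromere genes -1.20. The 8 kinesins and the 3 genes of the chromosomal passenger complex, which corrects chromosome attachment, both had -1.08. The 3 genes of the anaphase ubiquitin arm had -1.04. The mitotic kinase role, made up of AURKA, PLK1 and TPX2, had -0.99, and TPX2 is not itself a kinase. The 6 spindle microtubule proteins and the 7 CDK1 engine genes both had -0.98, and the 3 cytokinesis genes -0.85. All members of each of these roles were called lower. The checkpoint genes were the exception, with 4 of 5 called. TOP2A changed by -1.33 ± 0.09 on the log2 scale (SE here and throughout, edgeR adjusted p = 1.25e-09), MYBL2 by -1.39 ± 0.10 (3.44e-09), FOXM1 by -1.33 ± 0.09 (4.41e-09) and CENPF by -1.35 ± 0.10 (4.60e-09). ASPM, with 115 CPM with vehicle and 41.2 with DHT, had the lowest log2 value, -1.48 ± 0.11 (edgeR adjusted p = 8.11e-09). CDK1 changed less, by -0.88 ± 0.08 (edgeR adjusted p = 2.09e-07), and AURKA and BUB1 both by -0.84 (adjusted p = 3.93e-04 and 3.82e-05), though AURKA did not pass by DESeq2 (adjusted p = 0.0658). BUB3, a checkpoint protein with other roles outside mitosis, was at 179 CPM with vehicle and 153 with DHT, and its log2 value of -0.22 ± 0.09 did not pass (edgeR adjusted p = 0.0573). Since 1 library stood for each of these groups, the spread in this test came from the 3-day and 30-day libraries, taken as 2 libraries of 1 state.

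With dox, 46 of the 49 fell with DHT, where 16.7% of all genes tested fell, with a median log2 change of -0.51 against -0.02 over all genes. The 3 that did not pass were WEE1 at -0.14, KIF18A at -0.22 and CKAP2, a spindle protein, at 0.04 ± 0.06. MAD2L1, which carries the checkpoint signal, changed the most, by -0.98 ± 0.08 (edgeR adjusted p = 7.13e-09), followed by MYBL2 at -0.86 ± 0.07 (6.64e-09), the microtubule depolymerase KIF2C at -0.84 ± 0.08 (5.20e-08) and FOXM1 at -0.77 ± 0.06 (1.91e-08). TOP2A changed by -0.63 ± 0.06 and CENPF by -0.56 ± 0.07. CCNB1, KIF20A and PLK1 were called lower by edgeR but did not pass by DESeq2 (adjusted p = 0.1025, 0.075 and 0.1078). MKI67 and AURKA did not pass by DESeq2 either (adjusted p = 0.1102 and 0.4328). MKI67 and AURKA changed by -0.26 ± 0.08 (edgeR adjusted p = 0.0118) and -0.31 ± 0.11 (0.0274). Neither call held in every setting: MKI67 was at -0.15 and AURKA at -0.10 without the 3-day vehicle library, with adjusted p of 0.16 and 0.38, and at -0.23 and -0.16 without the 30-day DHT library, with 0.0629 and 0.214.

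The difference between these responses was tested directly. The DHT response was less negative with dox in all 49 genes, by a median of 0.54 on the log2 scale against 0.00 over all genes tested. It passed for 6 of the 49 by edgeR, where 0.0462% of all genes did, or 8 genes in the whole table. At an unadjusted p under 0.05 the difference passed for 48 of the 49, where 3.97% of all genes did. ASPM had 0.90 ± 0.13, CENPF 0.79 ± 0.12 and TOP2A 0.70 ± 0.10 (edgeR adjusted p = 0.0124 for each). CASC5, the KNL1 scaffold of the kinetochore, was at 139 and 56.6 CPM with vehicle and DHT without dox, 145 and 95.4 at 3 days and 144 and 97.7 at 30 days, a difference of 0.71 ± 0.11 (edgeR adjusted p = 0.0159). PRR11, a gene of late cell cycle, was at 65.5 and 25.4 CPM, then 64.7 and 44.9, then 60.9 and 41.3, with 0.82 ± 0.14 (edgeR adjusted p = 0.0383), and MKI67 had 0.78 ± 0.14 (0.0421). In each of the 6, both DHT libraries with dox lay between the vehicle libraries and the DHT library without dox. By role the median difference ran from 0.40 in the checkpoint genes to 0.63 in the kinetochore genes, 0.65 in the anaphase arm and 0.74 in the topology pair. BUB3 was the gene with the smallest difference, 0.03 ± 0.10.

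This count moved with the setting, and the share of all genes called in each of these other fits is not given here. DESeq2 called 4 of the 49, and edgeR with all genes of at least 1 count called 0, with ASPM at 0.87 and an adjusted p of 1.00. Leaving out a library with dox raised it, to 39 without the 3-day vehicle library, 15 without the 3-day DHT library, 23 without the 30-day vehicle library and 29 without the 30-day DHT library. The DHT library and the vehicle library without dox are 1 each, so neither could be left out, and every difference rests on both.

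Ratios of single libraries show the same levels by time, with counting error only. DHT against vehicle had a median log2 ratio of -1.04 without dox, with 47 of 49 past a 1.5-fold fall, where 10.2% of all genes were, taking those with 100 or more counts over both libraries. The median was -0.53 at 3 days, with 19 of 49 past the fold against 7.23% of all genes, and -0.50 at 30 days, with 15 of 49 against 7.21%. With total counts in place of TMM the medians were -1.25, -0.71 and -0.66, with 47, 37 and 31 past the fold. Read the other way, 3 days of dox against none gave a median of 0.04 with vehicle, with 0 of 49 past the fold and higher (0.451% of all genes), and 0.57 with DHT, with 20 of 49 past the fold and higher, where 1.76% of all genes were. At 30 days the medians were -0.10 with vehicle, again with 0 of 49 past the fold and higher (1.02% of all genes), and 0.45 with DHT, with 11 of 49 past it, where 2.57% were. In DHT all 49 had a 95% counting interval above no change at both times, where 1787 of 11931 genes did at 3 days and 18.2% of all genes at 30 days. With vehicle, 8 of the 49 had an interval above no change and 5 below it at 3 days, against 9.26% and 8.10% of all genes, and 4 above and 21 below at 30 days, against 12.7% and 12.9%. Among the vehicle ratios at 30 days, PLK1 was at -0.52, CDC20, which activates the anaphase ligase, at -0.46 and CCNB1 at -0.38.

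Other lists give the setting of these values. With DHT and no dox, 49 of 55 S-phase genes fell, with a median of -0.82, and 62 of 64 other mitotic genes fell and 2 rose, with a median of -1.01. The constitutive core subunits of the anaphase-promoting ligase had a median of 0.07. The median difference of the DHT response was 0.23 in the S-phase genes, with 20 of 55 at an unadjusted p under 0.05, and 0.41 in the other mitotic genes, with 42 of 64. S-phase genes had dox-to-none medians of 0.20 and 0.27 with vehicle at 3 and 30 days, and 0.46 in DHT at both. Among regulators, LIN9 of the MuvB complex changed by -1.13 and the repressors E2F7 and E2F8 by -1.36 and -1.06 with DHT and no dox, and CDKN1A (p21), an inhibitor of CDKs, by 0.59 without dox and 0.69 with dox. Mitochondrial transcripts had a median DHT response of 0.06 without dox, with 1 of 13 higher, and 0.30 with dox, with 7 of 13 higher, and their part in these results was not tested.

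**Figure D3:**
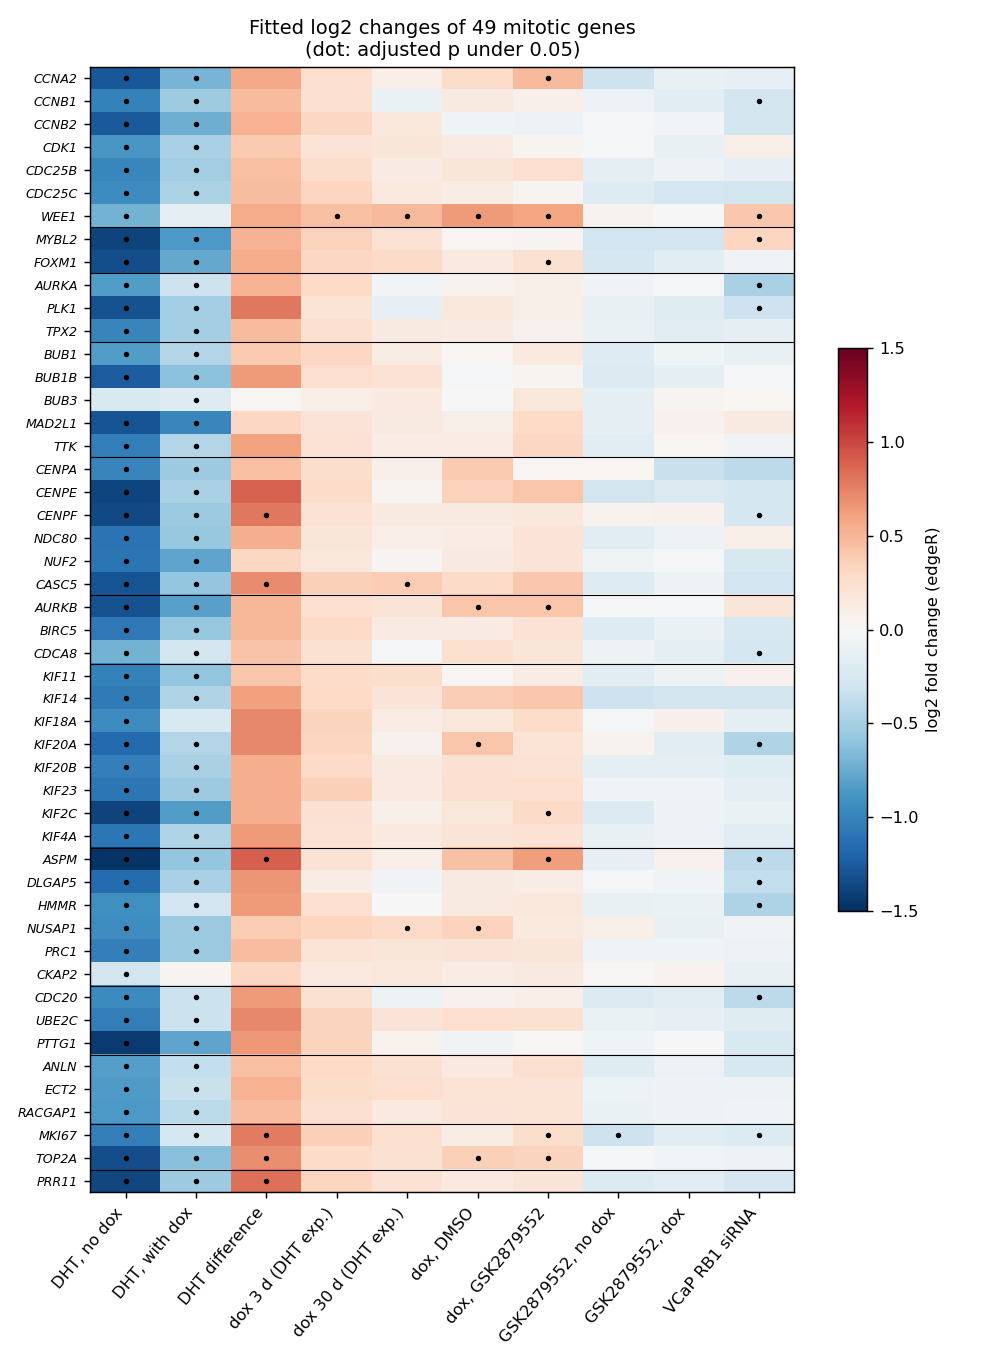
Log2 change (colour) of the 49 genes (rows, ordered by role) in 10 comparisons (columns), with a dot where the edgeR adjusted p was under 0.05. Dots fill the columns of DHT without dox (48 genes) and with dox (46 genes) and are few in the dox columns of C4-2, 5 with DMSO and 8 with GSK2879552.

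Dox, and with it RB1 knockdown, gave few calls among the genes in C4-2. In the DHT experiment 1 library per group left no spread within a group. The fit over vehicle and DHT took the DHT response as equal at all dox levels, so departures from that entered its spread. All 49 had a less negative DHT response with dox, and the SEs and calls of this fit are limited by that. Here and in the paragraphs below, no share of all genes called is given for fits that left out a library. Those counts do not show whether the members or all genes moved. Over vehicle and DHT together, 3 days of dox against none gave 1 of 49 higher by edgeR, where 0.272% of all genes were: WEE1, by 0.45 ± 0.10 (adjusted p = 0.0372). The median over the 49 was 0.26 against 0.00 over all genes, and 41 were higher at an unadjusted p under 0.05, where 5.47% of all genes were. At 30 days 3 were higher by edgeR, where 2.51% of all genes were: WEE1, NUSAP1 and CASC5. By DESeq2 NUSAP1 and CASC5 did not pass at 30 days (adjusted p = 0.1506 and 0.7486), nor did WEE1 at 3 days (0.1571). Without the DHT library that had no dox, WEE1, NUSAP1 and CASC5 were at 0.23, 0.10 and 0.06 at 30 days. With all libraries WEE1 rose by 0.49 ± 0.10 (edgeR adjusted p = 0.00351), NUSAP1, which bundles spindle microtubules, by 0.28 ± 0.08 (0.0342) and CASC5 by 0.38 ± 0.10 (0.0378). These values average vehicle and DHT, which differed: the count at 3 days was 0 without the DHT library that had no dox and 48 without its vehicle library, and 0 without the 3-day DHT library, 20 without the 3-day vehicle library, 20 without the 30-day vehicle library and 19 without the 30-day DHT library. At 30 days it was 0 without the DHT library that had no dox, with 10 then lower, 44 without its vehicle library, 7 and 6 without the 3-day vehicle and DHT libraries, 15 without the 30-day vehicle library and 0 without the 30-day DHT library. Between 30 and 3 days edgeR called 0 of 49 (10 lower at an unadjusted p under 0.05, where 3.40% of all genes were, and 0 by DESeq2), where 0.324% of all genes changed, and the median was -0.12. AURKA had the smallest value, -0.34 ± 0.09 (edgeR adjusted p = 0.148). That count was 10 lower without the vehicle or the DHT library that had no dox, 4 without the 3-day vehicle library and 6 without the 30-day DHT library.

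In the second C4-2 experiment, with 2 libraries per group, 5 of the 49 rose with dox in DMSO, where 4.25% of the 18423 genes tested rose, and none fell, where 3.59% did. WEE1 was at 27.1 and 28.7 CPM without dox and 42.9 and 43.9 with it, a log2 change of 0.64 ± 0.09 (edgeR adjusted p = 4.39e-04). The aurora kinase of the passenger complex, AURKB, was at 29.1 and 30.1 CPM without dox and 38.9 and 40.3 with it, a change of 0.42 ± 0.09 (edgeR adjusted p = 0.00619). In both genes the dox libraries lay clear of the others. KIF20A was at 60.8 and 75.0 CPM without dox and 90.0 and 91.9 with it, a change of 0.42 ± 0.09 (edgeR adjusted p = 0.00703). NUSAP1 was at 89.5 and 93.2 CPM without dox and 115 and 118 with it, a change of 0.35 ± 0.07 (0.00748 by edgeR), and TOP2A was at 120.5 and 134 CPM without dox and 156 and 168 with it, a change of 0.35 ± 0.08 (0.0161). The dox libraries were above those without dox in each of the 3, and for KIF20A the pair without dox was itself apart. AURKB, NUSAP1 and TOP2A lost their calls on leaving out any 1 of the libraries compared. AURKB was then at 0.393 to 0.443, NUSAP1 at 0.321 to 0.375 and TOP2A at 0.278 to 0.425. KIF20A lost its call without DMSO library 1 or either dox library with DMSO.

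The other 44 did not pass, and the median over the 49 was 0.15 against 0.00 over all genes, with 20 higher at an unadjusted p under 0.05, where 11.2% of all genes were. CDK1 was at 118 and 130.3 CPM without dox and 128 and 142 with it, so the pairs overlapped. MYBL2 was at 178 and 158 CPM without dox and 173 and 171 with it, PLK1 at 100 and 101 without and 111 and 113 with it, and AURKA at 48.8 and 46.3 without and 50.2 and 48.2 with it. MYBL2 and AURKA overlapped and PLK1 did not. The checkpoint genes had a median of 0.03, with 0 of 5 called, and the passenger complex had the highest role median, 0.24, with 1 of 3 called. Of the S-phase genes 23 of 55 rose, with a median of 0.30, and of the other mitotic genes 8 of 64, with a median of 0.19. E2F7, an S-phase repressor, rose by 0.86, CDKN1A by 0.75, and RBL2, the p130 gene, changed by -0.54. For RBL1, the p107 gene, the value with DMSO is not given here. RBL1 was called higher by edgeR with dox in GSK2879552 and at 3 days of dox over vehicle and DHT. The 3-day call did not pass by DESeq2 (0.48, adjusted p = 0.07186). Mitochondrial transcripts were 2.72 and 3.58% of counts in the 2 DMSO libraries without dox and 3.99 to 4.61% in the other 6 libraries of the experiment, and their part in these counts was not tested. For the left-out libraries that follow, the share of all genes called is not given. The count of 5 was 1 without DMSO library 1, 3 without DMSO library 2, 1 without either dox library with DMSO, and 19 and 17 without GSK2879552 library 1 and 2.

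With GSK2879552 present, 8 of the 49 rose with dox, where 4.52% of all genes rose, with a median of 0.20 against 0.01 over all genes and 24 higher at an unadjusted p under 0.05, where 12.4% of all genes were. WEE1 was at 30.6 and 27.1 CPM without dox and 44.8 and 42.2 with it (0.59 ± 0.09, edgeR adjusted p = 7.00e-04). CCNA2, the cyclin of S and G2 phase, was at 25.3 and 23.5 CPM without dox and 32.8 and 35.7 with it (0.48 ± 0.09, edgeR adjusted p = 0.00392). AURKB was at 28.3 and 30.0 CPM without dox and 39.5 and 38.2 with it (0.42 ± 0.09, edgeR adjusted p = 0.00658). None of these pairs overlapped. MKI67 was at 197 and 189.6 CPM without dox and 234 and 229 with it, a change of 0.26 ± 0.06 (edgeR adjusted p = 0.0165). TOP2A was at 137 and 113 CPM without dox and 157 and 158 with it, and FOXM1 at 127 and 133 without and 156 and 149 with it, with changes of 0.33 ± 0.08 (edgeR adjusted p = 0.0217) and 0.23 ± 0.07 (0.0375). ASPM was at 21.4 and 12.4 CPM without dox and 23.3 and 30.0 with it, a change of 0.62 ± 0.17 (edgeR adjusted p = 0.0347) that was 0.31 without GSK2879552 library 2. FOXM1 lost its call in 7 of the fits that left out a library, with the looser filter and with only the 2 groups compared (adjusted p of 0.0513 to 0.266), and TOP2A lost it without either library of dox and GSK2879552 and with only the 2 groups compared (0.0956 to 0.16). MKI67, ASPM, AURKB and CCNA2 also lost theirs without at least 1 library, and WEE1 kept its call without each of them. KIF2C was the eighth, at 62.8 and 57.9 CPM without dox and 73.7 and 74.1 with it. WEE1, AURKB and TOP2A were called with both DMSO and GSK2879552. The comparisons share no libraries but 1 estimate of the spread. For the left-out libraries that follow, the share of all genes called is not given. The count of 8 was 29 without GSK2879552 library 1, 3 and 1 without dox and GSK2879552 library 1 and 2, and 5 without any 1 of the 4 DMSO libraries.

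GSK2879552 itself moved the set little in C4-2. The 2 libraries of GSK2879552 without dox had the highest chi-square per gene of any pair within a group, 7.88, so they differed by far more than sampling noise. Without dox 1 of the 49 was lower by edgeR, where 0.0597% of all genes were, and the median was -0.12 against 0.00 over all genes, with 11 lower at an unadjusted p under 0.05, where 5.34% of all genes were. The 1 was MKI67, at 247 and 234 CPM with DMSO and 197 and 189.6 with GSK2879552, a change of -0.31 ± 0.06 (edgeR adjusted p = 0.0205). CCNA2 was at 30.3 and 30.6 CPM with DMSO and 25.3 and 23.5 with GSK2879552, with -0.32 ± 0.09 (edgeR adjusted p = 0.156). MYBL2 was at 178 and 158 CPM with DMSO and 134 and 141 with GSK2879552, and PLK1 at 100 and 101 with DMSO and 87.2 and 98.4 with GSK2879552. For these 4 genes no GSK2879552 library reached a DMSO library, but only MKI67 passed. Its call was lost (adjusted p of 0.0521 to 0.454) on leaving out either DMSO library, either dox library with DMSO, or dox and GSK2879552 library 1, where the count was 0, and the count was 11 without GSK2879552 library 1 and 4 without GSK2879552 library 2. Of 13 mitochondrial transcripts 12 rose in this comparison, with a median of 0.55, and their part in it was not tested.

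With dox, edgeR called 0 of the 49 with GSK2879552 against DMSO, where 1.34% of all genes changed. DESeq2 called 1 lower, and 9 were lower at an unadjusted p under 0.05, where 3.94% of all genes were, with a median of -0.08 against 0.00 over all genes. CENPA, the centromeric histone, had the lowest value, -0.34 ± 0.13, and KIF18A the highest, 0.08. The count was 1 lower without GSK2879552 library 1 and 2 lower without GSK2879552 library 2. The difference of the GSK2879552 response with and without dox passed for 0 of 49 by edgeR (0 at an unadjusted p under 0.05, 0 by DESeq2), where 0.0163% of all genes passed, with a median of 0.03 against 0.01 over all genes and values from -0.37 ± 0.19 (CENPA) to 0.22 ± 0.17 (MAD2L1). The count was 1 higher without GSK2879552 library 1.

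In VCaP, RB1 siRNA lowered some spindle genes and raised MYBL2 and WEE1. Of the 49, 11 fell and 2 rose, where 2.65% and 2.96% of the 14066 genes tested did, and the median was -0.17 against 0.00 over all genes. KIF20A was at 114, 116 and 109 CPM with control siRNA and 82.7, 82.1 and 82.6 with RB1 siRNA, a change of -0.45 ± 0.06 (edgeR adjusted p = 1.12e-09). AURKA was at 72.5, 66.0 and 83.3 CPM with control and 52.6, 51.7 and 54.0 with RB1 siRNA, a change of -0.49 ± 0.07 (edgeR adjusted p = 2.25e-07), the lowest of the 49. Neither gene's groups overlapped, and the KIF20A libraries were tight in both. ASPM was at 67, 71.1 and 68.1 CPM with control and 52.2, 51.1 and 53.8 with RB1 siRNA (-0.39 ± 0.07, edgeR adjusted p = 2.75e-05). CCNB1 was at 110.5, 99.5 and 103 CPM with control and 87.1, 84.9 and 86.7 with RB1 siRNA (-0.27 ± 0.06, edgeR adjusted p = 3.88e-04). CENPF was at 113, 111 and 117 CPM with control and 95.8, 92.8 and 98.6 with RB1 siRNA (-0.25 ± 0.05, edgeR adjusted p = 8.75e-04). All 3 fell without overlap.

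MKI67 was at 194, 201 and 195 CPM with control and 181, 158 and 171 with RB1 siRNA, a change of -0.21 ± 0.05 (edgeR adjusted p = 6.59e-04; 0.0521 without RB1 siRNA library 2). PLK1 was at 39.3, 40.9 and 43.3 CPM with control and 32.4, 33.1 and 34.3 with RB1 siRNA, a change of -0.31 ± 0.09 (edgeR adjusted p = 0.0173), which did not pass by DESeq2 (adjusted p = 0.213). The PLK1 call was also lost, at adjusted p of 0.0547 to 0.131, without control library 2 or 3 or RB1 siRNA library 1 or 2. The remaining genes that fell were HMMR, DLGAP5, CDC20 and CDCA8, at -0.46, -0.37, -0.39 and -0.26; HMMR and DLGAP5 bind spindle microtubules and CDCA8 anchors the passenger complex. MYBL2 went the other way, at 115, 118 and 124 CPM with control and 152, 153 and 143 with RB1 siRNA, a rise of 0.33 ± 0.05 (edgeR adjusted p = 6.08e-07). WEE1 was at 35.9, 37.6 and 38.4 CPM with control and 50.2, 47.6 and 50.4 with RB1 siRNA, a rise of 0.40 ± 0.08 (edgeR adjusted p = 3.14e-04). Both rose without overlap.

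The other 36 did not pass. CDK1 was at 75.9, 87.6 and 87.5 CPM with control and 92.6, 82.9 and 90.5 with RB1 siRNA, with overlap, and TOP2A at 447, 444 and 457 with control and 409, 427 and 433 with RB1 siRNA, without it. FOXM1 was at 128, 126 and 121 CPM with control and 123, 118 and 119.7 with RB1 siRNA, and BUB1 at 53.5, 53.0 and 50.6 with control and 45.7, 47.9 and 52.5 with RB1 siRNA. Both overlapped. The checkpoint genes had 0 of 5 called. The mitotic kinase role (AURKA, PLK1 and TPX2, which is not itself a kinase) had the lowest role median, -0.31, with 2 of 3 called. Counted by overlap alone, 25 of the 49 had all RB1 siRNA libraries below all control libraries, where 10.6% of genes did, and 3 had them above, where 10.7% did. DESeq2 called 7 lower. S-phase genes moved the other way, with 23 of 55 higher, 0 lower and a median of 0.24, while of the other mitotic genes 2 rose and 5 fell, with a median of -0.07. All 13 mitochondrial transcripts fell, with a median of -0.24, and their share of counts was 2.44 to 2.58% with control and 2.09 to 2.21% with RB1 siRNA. Their part in these values was not tested.

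The RB1 responses of VCaP and of C4-2 with DMSO were then compared in 1 fit. The response was lower in VCaP for 31 of the 49 and higher for 1, where 5.73% and 5.20% of the 16902 genes tested were, with a median difference of -0.37 on the log2 scale against -0.01 over all genes. KIF20A had a difference of -0.88 ± 0.09 (edgeR adjusted p = 3.97e-16), having fallen in VCaP and risen in C4-2, and ASPM -0.85 ± 0.11 (1.99e-09). TOP2A had -0.45 ± 0.06 (edgeR adjusted p = 3.19e-09), CCNB1 -0.42 ± 0.08 (9.37e-06), AURKA -0.55 ± 0.10 (1.13e-05) and CENPF -0.40 ± 0.07 (2.11e-05). These span the cyclin, a kinase, a kinesin and the kinetochore. MKI67 had -0.32 ± 0.06 (edgeR adjusted p = 6.97e-05), PLK1 -0.47 ± 0.10 (2.86e-04) and FOXM1 -0.21 ± 0.07 (0.0348). FOXM1 did not pass by DESeq2 (adjusted p = 0.0985), nor without control library 1 or 2 or RB1 siRNA library 2 or 3 of VCaP, nor without dox library 1 of C4-2 (0.0642 to 0.148 by edgeR). MYBL2 was the 1 higher in VCaP, by 0.28 ± 0.07 (edgeR adjusted p = 0.00243), and its difference without DMSO library 1 of C4-2 was 0.20 (adjusted p = 0.0616). WEE1, which rose in both lines, had a difference of -0.24. In S-phase genes the difference was lower for 7 and higher for 1 of 55, with a median of -0.06, and in the other mitotic genes lower for 19 of 64, with a median of -0.24. The fit used 1 common spread between libraries for both lines, 3.04%, where the separate fits had 2.27% in VCaP and 5.79% in the second C4-2 experiment. The error of the C4-2 part can therefore be smaller here than in its own fit, and these SEs and p-values rest on that shared spread. Cell line, medium, siRNA against hairpin and table all change together here and cannot be told apart.

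**Figure D4:**
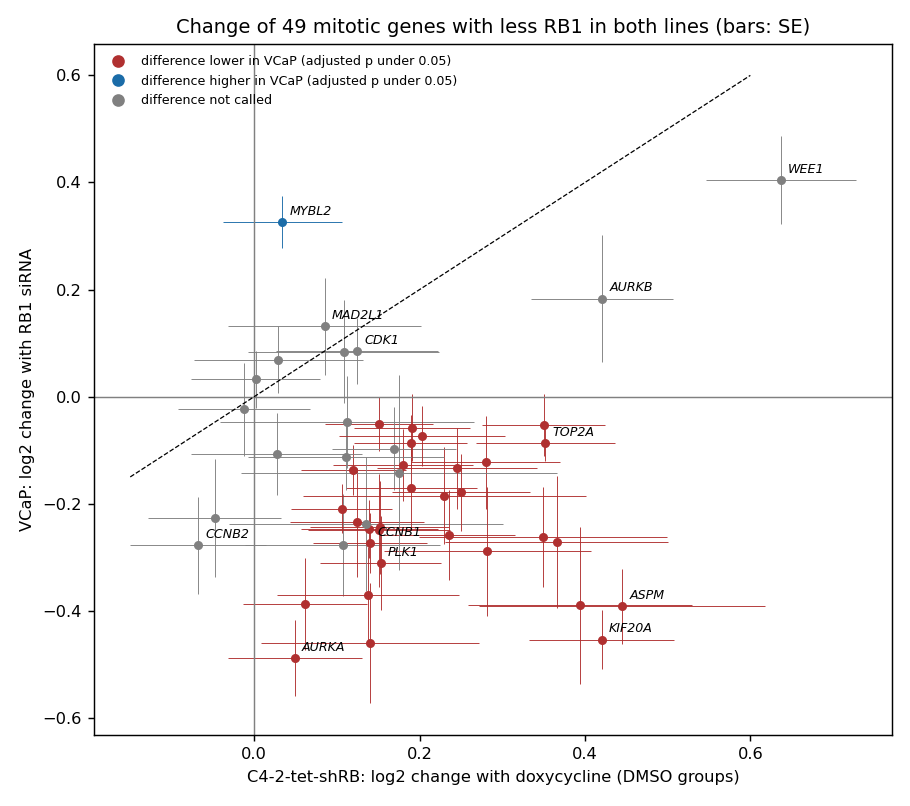
Log2 change with RB1 siRNA in VCaP (y axis) against log2 change with dox and DMSO in C4-2 (x axis) for the 49 genes, with bars of 1 SE; red marks the 31 with a lower response in VCaP, blue the 1 with a higher response and grey those not called, and the dashed line marks equal change. Most points lie below the dashed line, and MYBL2 lies above it.

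LNCaP with GSK2879552 is 1 library against 1, so the ratios carry counting error only and have no replicate check. The 49 genes were 0.0852% of all counts with vehicle and 0.0577% with GSK2879552. Of the 45 members with at least 100 counts in the pair, 25 were past a 1.5-fold fall, where 7.51% of all genes were, and 0 were past it in the other direction (6.74% of all genes). The median log2 ratio was -0.64 against -0.01 over all genes, and 36 had a 95% interval below no change, where 30.7% of all genes did. The 4 with fewer counts were TTK, CENPA, NUF2 and KIF18A.

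PLK1 was at 23.8 CPM with vehicle and 9.03 with GSK2879552, a log2 ratio of -1.40 with a 95% interval of -1.71 to -1.09. MYBL2 was at 29.5 and 12.5 CPM (-1.23, -1.504 to -0.97) and FOXM1 at 39.0 and 18.6 (-1.07, -1.29 to -0.85). These transcription factors and PLK1 were among the lowest ratios, with PRR11 lowest of all at -1.47 (-1.92 to -1.03), then the kinesin KIF4A at -1.41, UBE2C, which primes ubiquitin chains for the anaphase ligase, at -1.35, and AURKB at -1.24. CDK1 was at 21.5 and 17.7 CPM (-0.28, -0.53 to -0.03), CCNB1 at 50.6 and 34.8, and AURKA at 11.7 and 9.18. The CDK1 engine had 1 of 7 members past the fold and a median of -0.44. MKI67 was at 42.7 and 30.7 CPM (-0.48, -0.66 to -0.29), TOP2A at 29.4 and 17.6, KIF20A at 20.0 and 11, and BUB1 at 9.65 and 6.45. CENPF was at 31.5 and 28.1 CPM (-0.17, -0.37 to 0.04), an interval that spans no change. BUB3 was the 1 with an interval above no change, where 26.7% of all genes had one, at 49.6 and 62.1 CPM (0.33, 0.18 to 0.47).

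By role, the transcription factors had a median of -1.15, the anaphase arm -1.14 and the passenger complex -1.09, with all of their 8 members past the fold. S-phase genes had a median of -0.67, with 28 of 52 past the fold, the other mitotic genes -0.57, with 23 of 47, and the core subunits of the anaphase-promoting ligase -0.05. Of 12 mitochondrial transcripts with enough counts 9 were past the fold and lower, with a median of -0.83, and their part in these ratios was not tested. The dose and time differ from those in C4-2, 10 µM for 24 hours there and 1 µM for 2 days here, so the values stand side by side: MYBL2 had -1.23 in LNCaP and -0.29 in C4-2 without dox, and PLK1 -1.40 and -0.12.

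**Figure D5:**
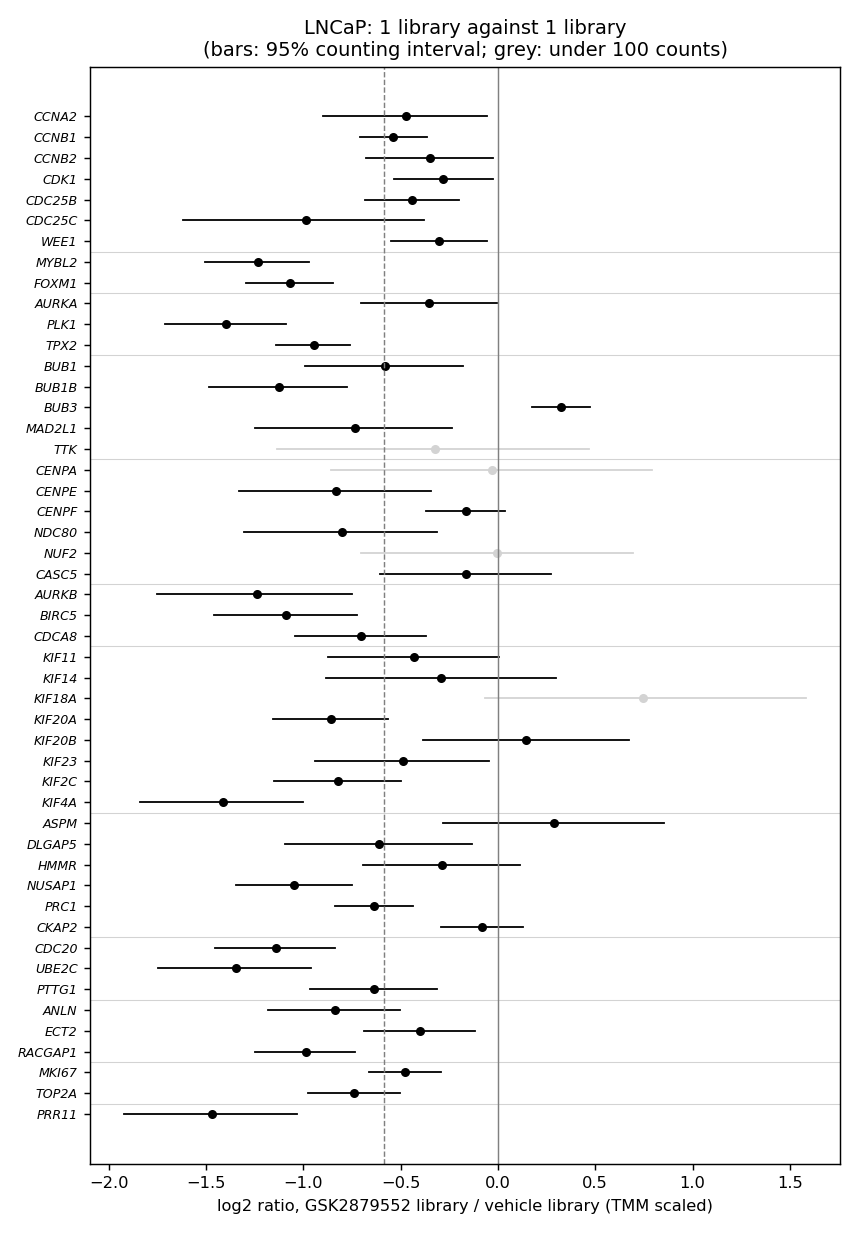
Log2 ratio of GSK2879552 to vehicle in LNCaP (x axis) with 95% counting intervals for the 49 genes (y axis, grouped by role); grey marks the 4 with fewer than 100 counts in the pair and the dashed line a 1.5-fold fall. Values run from PRR11 at -1.47 to BUB3 at 0.33 among the 45 with enough counts.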

How the data were processed

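The authors deposited raw counts per gene for 30 samples in 4 tables, and every value here starts from those counts. Per the submitters' processing notes, reads were checked with FastQC 0.11.9, aligned with STAR 2.7.2 to hg19 and counted with featureCounts 1.6.4; strand setting and handling of shared reads are not given in the sources used here. In the DHT and LNCaP tables the 2 columns of a group carry 1 library name and index with different lane numbers, per the labels, and their chi-square per gene was under 1.5 (0.983 to 1.01), so they were summed. VCaP columns carry replicate numbers and no lane, so they were kept apart, although their chi-square per gene of 1.13 to 1.39 shows them little apart. In the second C4-2 table it was 1.61 to 7.88, highest for GSK2879552 without dox and then DMSO without dox (3.56). edgeR 4.0.16 in R 4.3.3 was fitted to all genes of a table (filterByExpr, TMM, quasi-likelihood F test, Benjamini-Hochberg over all genes, called at an adjusted p under 0.05); the SE is the absolute log2 change over the root of F. DESeq2 1.42.0, other scalings, filters and left-out libraries were alternatives. Groups of 1 library were compared by ratios with exact binomial (Clopper-Pearson) 95% intervals, which cover counting error only. Levels per kilobase used GENCODE 29 exon lengths.

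The members and all gene lists were chosen with earlier results of these data known. Named genes were 11 anchors (CDK1, CCNB1, PLK1, AURKA, MKI67, TOP2A, FOXM1, MYBL2, CENPF, KIF20A and BUB1) plus, per comparison, up to 4 called genes of smallest p in each direction and the extremes; PRR11, HMMR, DLGAP5, CDC20, CDCA8, KIF2C and genes that complete a short count were named after their values were seen. Promoter windows for WEE1, FOXM1, AURKA, TPX2, BUB3, TTK, CASC5, BIRC5, UBE2C and RACGAP1 were not used here.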

Additional observations from a re-analysis of the deposited data

Results flagged for a closer look

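Some effects differed between groups under the same contrast, by a test of the difference itself. The DHT response of C4-2 was less negative with dox for 6 of the 49 genes, where 0.0462% of all genes passed in that direction. ASPM differed by 0.90, PRR11 by 0.82, CENPF by 0.79, MKI67 by 0.78, CASC5 by 0.71 and TOP2A by 0.70 on the log2 scale. Each group without dox was 1 library, and none of the 6 passed with all genes of at least 1 count. The response to RB1 depletion differed between VCaP and C4-2 for 32 genes, with 31 lower and 1 higher in VCaP, where 5.73% and 5.20% of all genes were. Among the named genes, KIF20A differed by -0.88, ASPM by -0.85, AURKA by -0.55, PLK1 by -0.47, TOP2A by -0.45, CCNB1 by -0.42, CENPF by -0.40, MKI67 by -0.32 and FOXM1 by -0.21, and MYBL2 by 0.28.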

How the results depend on the processing

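Over the alternatives tried for the genes named, 1092 values kept their direction and side of the threshold, 124 lost a call, 9 gained one and 5 changed sign; of the counts, 265 stayed within 1.5 times and 65 did not. The cause was not tested in any case. Shares of all genes called under these alternatives are not given, here or in the Results. The counts therefore do not show whether the members or all genes moved. DESeq2 gave 7 genes lower in VCaP, 1 lower with GSK2879552 in dox, and 0 and 1 higher with dox at 3 and 30 days over vehicle and DHT. With all genes of at least 1 count, edgeR called 8 higher with dox in DMSO, 2 and 1 lower with GSK2879552 without and with dox, 20 and 7 higher with dox at 3 and 30 days, 4 lower between 30 and 3 days, and 0 in the difference of the DHT response. Fitting only the 2 groups compared called 24 higher with dox in DMSO, 2 higher with dox in GSK2879552, and 0 and 6 lower with GSK2879552 without and with dox. With total counts, 37 and 31 genes were past a 1.5-fold fall with DHT at 3 and 30 days.

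Leaving out each library in turn gave 8 to 12 genes lower in VCaP, 1 to 19 higher with dox in DMSO, 1 to 29 higher with dox in GSK2879552, 0 to 11 and 0 to 2 lower with GSK2879552 without and with dox, and 0 to 1 higher in the difference of those responses. It gave 0 to 48 higher at 3 days of dox, 0 to 44 higher and 0 to 10 lower at 30 days, 0 to 10 lower between 30 and 3 days, 48 to 49 and 40 to 47 lower with DHT without and with dox, and 15 to 39 higher in the difference of the DHT response. Between VCaP and C4-2 it gave 22 to 31 lower and 0 to 1 higher. Signs changed for NUSAP1 with GSK2879552 without dox (0.00 to 0.17), KIF18A with GSK2879552 and dox (-0.068 to 0.23), PLK1 at 30 days of dox (-0.47 to 0.33) and BUB3 in the difference of the DHT response (-0.001 to 0.059).

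Same-numbered libraries did not deviate together (correlations of 0.010 to 0.028 in VCaP and -0.125 to 0.035 in C4-2), so the numbers were not taken as pairs. With the replicate number as a block, 4 genes were higher with dox in GSK2879552 and 0 lower with GSK2879552 without dox. For dox in GSK2879552 alone, the numbers of the GSK2879552 libraries without dox were also crossed, a setting chosen after seeing the data. With that block 23 genes were higher. No other count moved by over 1.5 times with the block. No paired analysis was possible for the DHT and LNCaP tables because each group is 1 library. With 4311455 counts in the shallowest VCaP library and fewer than 100 counts for 4 members in LNCaP, small changes of low genes were not detectable.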
